A study of Mus musculus with 8 samples.

Results

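The genes described here belong to the signalling chain that runs from death receptors through caspases to apoptosis or necroptosis. The group was set by name as 8 genes, the receptors Fas and Tnfrsf1a, the adaptor Fadd, the kinases Ripk1 and Ripk3, the initiator caspases Casp8 and Casp9, and the caspase-8 inhibitor Cflar. Of these 8 genes, 2 had a row in the count tables used here, Casp8 (ENSMUSG00000026029) and Cflar (ENSMUSG00000026031). The 1933 gene rows shared by the tables include 1830 whose identifier is found in the GENCODE M21 annotation, all of them on chromosome 1. The other 103 are not found there, so their chromosome is not known here. The other 6 genes lie on other chromosomes (Tnfrsf1a on 6, Fas on 19, Fadd on 7, Ripk1 on 13, Ripk3 on 14 and Casp9 on 4) and were not analysed here. What follows therefore concerns the caspase-8 and cFLIP pair and not the pathway.

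Death receptors are surface proteins of the TNF receptor family that recruit the adaptor FADD when a ligand binds. FADD gathers procaspase-8, which activates itself by proximity and then cleaves executioner caspases. In the same complex cFLIP, the product of Cflar, pairs with caspase-8 and limits that activation. Caspase-8 held in check with cFLIP also cleaves the RIPK1 and RIPK3 kinases, which would otherwise lead to necroptosis through MLKL. Death of activated hepatic stellate cells, which store vitamin A when quiescent and make scar collagen when activated, is known as a route by which fibrosis resolves. AREL1 is a HECT-type ubiquitin ligase known for opposing apoptosis by promoting the degradation of mitochondrial antagonists of the inhibitor of apoptosis proteins.

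The 8 RNA libraries were labelled as hepatic stellate cells from livers with steatohepatitis (MASH), and the mice were male. They comprised 4 from AREL1HSC-KO mice, a stellate cell knockout (KO), and 4 from AREL1fl/fl mice, the floxed control (fl/fl). Both genotypes had received Western diet, with 21% fat, 50% carbohydrates and 20% protein, for 20 weeks from the age of 4 weeks, and were analysed at week 24. The labels and protocols used here name no Cre driver. They do not tell whether the 4 libraries of a group stem from 4 mice, so the spread behind every p-value may be technical.

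Gene-assigned reads numbered 19271004 to 25165289 in the KO libraries and 17619387 to 19663030 in the fl/fl libraries, and the shared rows held 3.20% to 3.28% of them. Arel1 lies on another chromosome and was not analysed here, which leaves the genotype labels unchecked on the targeted gene. None of the 11 listed stellate cell markers is in the rows, so the labelled cell type was not checked either. Of the other markers, Col3a1, a fibrillar collagen of activated fibroblasts, stood at 439.1 ± 0.801 CPM in KO and 485.2 ± 16.3 CPM in fl/fl (SD, n = 4 each; log2 fold change -0.14, edgeR adjusted p = 2.04e-05). CPM is the gene's read count per 1000000 gene-assigned reads, after scaling by the trimmed mean of M-values (TMM). The coefficient of variation (SD over mean) of Col3a1 was 0.18% in KO and 3.37% in fl/fl. Counting error alone gives 0.94% to 1.08% at the KO depths. The KO libraries thus lay closer together than counting reads would give, and the SD of 0.801 understates their uncertainty. Cd34, from the list for portal fibroblasts and mesothelium, stood at 84.6 ± 1.83 CPM in KO and 81.6 ± 3.14 CPM in fl/fl (edgeR adjusted p = 0.245). Its level is uncertain, since KO replicate 1 had 2057 either-strand reads but 1333 forward and 1276 reverse reads. The dendritic cell marker Batf3 stood at 3.43 ± 0.399 CPM in KO and 2.97 ± 0.355 CPM in fl/fl (edgeR adjusted p = 0.240). The cholangiocyte marker Pkhd1 had 0 reads in KO and 1 in fl/fl. For Serpinc1, the single hepatocyte marker in the rows, the either-strand column holds 6 to 17 reads per library but the forward column 75 to 159, so its level is not read here. No marker of macrophages, sinusoidal endothelium, T and NK cells, B cells, neutrophils or smooth muscle is in the rows, and their part in the results was not tested.

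The 2 genes encode related proteins that differ where the enzyme works. Each window below runs over 45 coding bases and is shown because it holds the codon of the catalytic cysteine of caspase-8 (capitals in Casp8) and the codon at the matching place in Cflar, which codes for tyrosine (capitals in Cflar). The sequences come from the GENCODE M21 transcripts (GRCm38, plus strand). The Casp8 window lies at chr1:58844589-58844633, in exon 8 of 9 of the longest coding transcript, and the Cflar window at chr1:58752593-58752637, in exon 9 of 10 of its longest coding transcript.
Casp8: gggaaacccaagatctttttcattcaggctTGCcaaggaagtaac
Cflar: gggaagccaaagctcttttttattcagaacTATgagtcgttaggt
The longest reading frames found in the annotated coding transcripts of Casp8 hold 480 or 500 codons. Those of Cflar hold 481 or 484 codons for the long form and 215 for a short form, which ends before this place. The deposited tables count reads per gene, so long and short Cflar messages are summed, and neither their ratio nor the protein is measured.

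Casp8, the initiator caspase, did not pass the test. Its levels were 51.5, 55.6, 53.8 and 53.5 CPM in KO replicates 1 to 4, and 56.2, 55.7, 55.5 and 52.3 CPM in fl/fl replicates 1 to 4. The groups overlapped, since fl/fl replicate 4 lay among the KO libraries and KO replicate 2 among the other fl/fl libraries. The means were 53.6 ± 1.66 CPM in KO and 54.9 ± 1.79 CPM in fl/fl (SD, n = 4 each). This gave a log2 fold change of -0.034 (SE 0.038, adjusted p = 0.511, edgeR quasi-likelihood test with Benjamini-Hochberg adjustment over 420 genes). The 95% interval of the difference ran from -7.48% to 3.05%. Casp8 rested on 1043 to 1427 reads per KO library and 913 to 1092 per fl/fl library. Counting error alone gives a coefficient of variation of 2.65% to 3.10% at those KO depths and 3.03% to 3.31% at those fl/fl depths. The spread between libraries, 3.10% in KO and 3.26% in fl/fl, was about that size.

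Cflar, the inhibitor, was lower in KO by a small amount. Its levels were 34.9, 35.6, 34.7 and 32.1 CPM in KO replicates 1 to 4, and 36.4, 36.9, 37.2 and 40.3 CPM in fl/fl replicates 1 to 4. The groups did not overlap, and the gap between the highest KO library (35.6 CPM) and the lowest fl/fl library (36.4 CPM) was narrow beside the spread within each group. The lowest library was KO replicate 4 and the highest was fl/fl replicate 4. Means were 34.3 ± 1.55 CPM in KO and 37.7 ± 1.76 CPM in fl/fl (SD, n = 4 each), and Cflar fell by 8.68% (95% interval -14.4% to -2.55%). The log2 fold change was -0.13 (SE 0.046, edgeR adjusted p = 0.0244).

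The call for Cflar rested on its outermost libraries and on the scaling. It was lost without KO replicate 4 (log2 fold change -0.10, adjusted p = 0.106) and without fl/fl replicate 4 (-0.099, adjusted p = 0.0769), and in 5 of the 9 alternatives that kept every library. Over all genes too, fl/fl replicate 4 differed most within its group (chi-square per degree of freedom 3.37 to 3.53 in its pairs, against 1.39 to 1.82 in the other fl/fl pairs), and without it the number of called genes was 191, against 158 with it. The part of that library's difference in the Cflar result was not tested beyond leaving it out. The collagen marker Col3a1 was lower in KO by a like amount (-9.52%, against -8.68% for Cflar). In fl/fl replicate 4, highest in Cflar, Col3a1 was lowest of the fl/fl libraries (470 CPM). Among the KO libraries Col3a1 ran only from 437.9 to 439.8 CPM, so whether the 2 genes vary together there cannot be judged. The part of Col3a1 in the Cflar result was not tested. Over all 17 alternatives Cflar stayed lower in KO, with adjusted p between 0.0236 and 0.257.

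**Figure D1:**
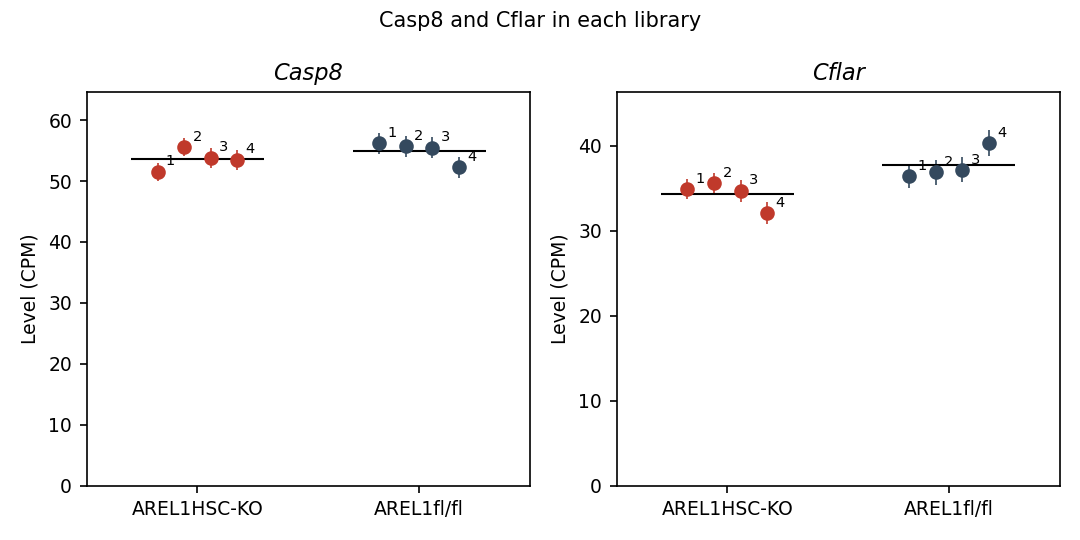
Levels of Casp8 and Cflar (vertical axes, CPM, from 0) in the 4 AREL1HSC-KO and the 4 AREL1fl/fl libraries. Points are libraries with their replicate numbers, thin bars are counting error (1 SD) and horizontal lines are group means; Casp8 overlaps between the groups, and Cflar does not, with KO replicate 4 lowest at 32.1 CPM and fl/fl replicate 4 highest at 40.3 CPM.

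Set beside all genes tested, the pair did not stand out. The comparison of KO with fl/fl called 37.6% of the 420 genes (77 higher and 81 lower in KO, 18.3% and 19.3%), and 1 of the 2 tested members was among them. The groups did not overlap in 31.4% of the 420 genes, 16.7% with KO lower. By size of change, 51.9% of tested genes had a smaller absolute log2 fold change than Cflar and 18.3% a smaller one than Casp8. The median absolute log2 fold change was 0.119 over all 420 genes and 0.195 over the 81 genes lower in KO, against 0.131 for Cflar. With upper-quartile scaling 69.8% of the called genes were higher in KO, and with library totals alone 60.6%, against 48.7% with TMM. In the unmapped share, which ran from 1.44% to 1.58% in KO and from 1.04% to 1.19% in fl/fl, the groups separated as well, and its part in the difference of Cflar was not tested. In an RNA pool of many cells, fewer cells of a type and less RNA per cell cannot be told apart.

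The balance between the inhibitor and the caspase within a library needs no scaling between libraries, because both genes share its depth. Cflar reads per Casp8 read were 0.677, 0.641, 0.645 and 0.599 in KO replicates 1 to 4, and 0.648, 0.662, 0.670 and 0.771 in fl/fl replicates 1 to 4. The groups overlapped, since KO replicate 1 lay above 3 of the 4 fl/fl libraries. The mean ratio was 0.640 ± 0.0319 in KO and 0.688 ± 0.0562 in fl/fl (SD, n = 4 each), a difference of -0.048 that was not tested. Without fl/fl replicate 4, in which Cflar was highest and Casp8 lowest among the fl/fl libraries, the fl/fl mean was 0.660 ± 0.0109 and the difference -0.020. Without KO replicate 1 the KO mean was 0.628 ± 0.0251 and the difference was -0.060. The groups then no longer overlapped for either strand, by a narrow gap (0.645 against 0.648). They still overlapped in the forward and in the reverse reads.

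**Figure D2:**
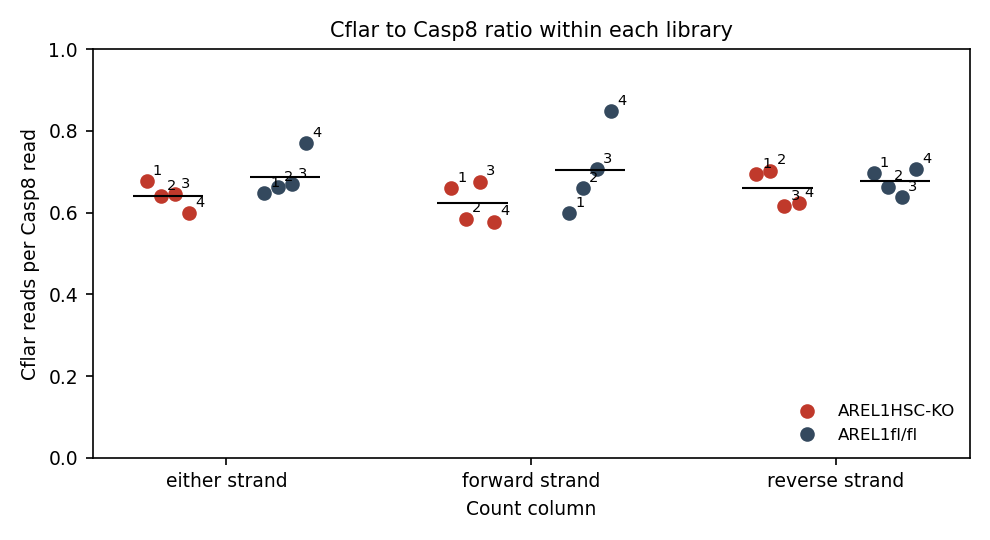
Cflar reads per Casp8 read (vertical axis, from 0) in each library, AREL1HSC-KO left of AREL1fl/fl, for either-strand, forward and reverse reads (horizontal axis). Points carry replicate numbers and lines are means; the groups overlap in all 3 columns, and fl/fl replicate 4 is highest at 0.771 for either strand.

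Casp8 stood higher than Cflar per unit of length, on each length used here. Per kilobase of its longest coding transcript (2.585 kb), Casp8 stood at 20.7 ± 0.643 CPM per kb in KO and 21.2 ± 0.693 in fl/fl (SD, n = 4 each). Cflar, with 6.572 kb, stood at 5.22 ± 0.236 CPM per kb in KO and 5.74 ± 0.268 in fl/fl. Per kilobase of all annotated exons joined (2.893 and 12.669 kb) the levels in KO were 18.5 ± 0.575 for Casp8 and 2.71 ± 0.123 for Cflar. In fl/fl they were 19.0 ± 0.620 and 2.98 ± 0.139. On these lengths the order is the same in both groups and the gap is far wider than the spread. A long-form Cflar transcript of 1771 bases and a Casp8 transcript of 1628 bases are also annotated. The order as well as the size of the gap can therefore depend on which transcripts the cells make, which the tables do not show.

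Reads of the pair fell on both strands in about equal numbers, although the kit is labelled as stranded. The forward share of Casp8 reads was 47.3% to 53.9% in KO and 45.3% to 50.7% in fl/fl, and that of Cflar reads 48.5% to 52.0% in KO and 46.3% to 50.5% in fl/fl. For both genes the forward and reverse reads add up to the either-strand count in 8 of 8 libraries, and no annotated gene overlaps their exons. The strand columns are therefore separate parts of the same reads. Taken alone they gave Casp8 opposite signs. With forward reads its log2 fold change was 0.063 (SE 0.055, edgeR adjusted p = 0.427), from 525 to 757 reads per KO library and 414 to 547 per fl/fl library. With reverse reads it was -0.13 (SE 0.052, adjusted p = 0.0361), from 481 to 670 reads per KO library and 482 to 545 per fl/fl library, the 1 alternative in which Casp8 was called. For Cflar both columns had a negative log2 fold change, -0.097 with forward reads (SE 0.061, adjusted p = 0.257) and -0.17 with reverse reads (SE 0.063, adjusted p = 0.0329).

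**Figure D3:**
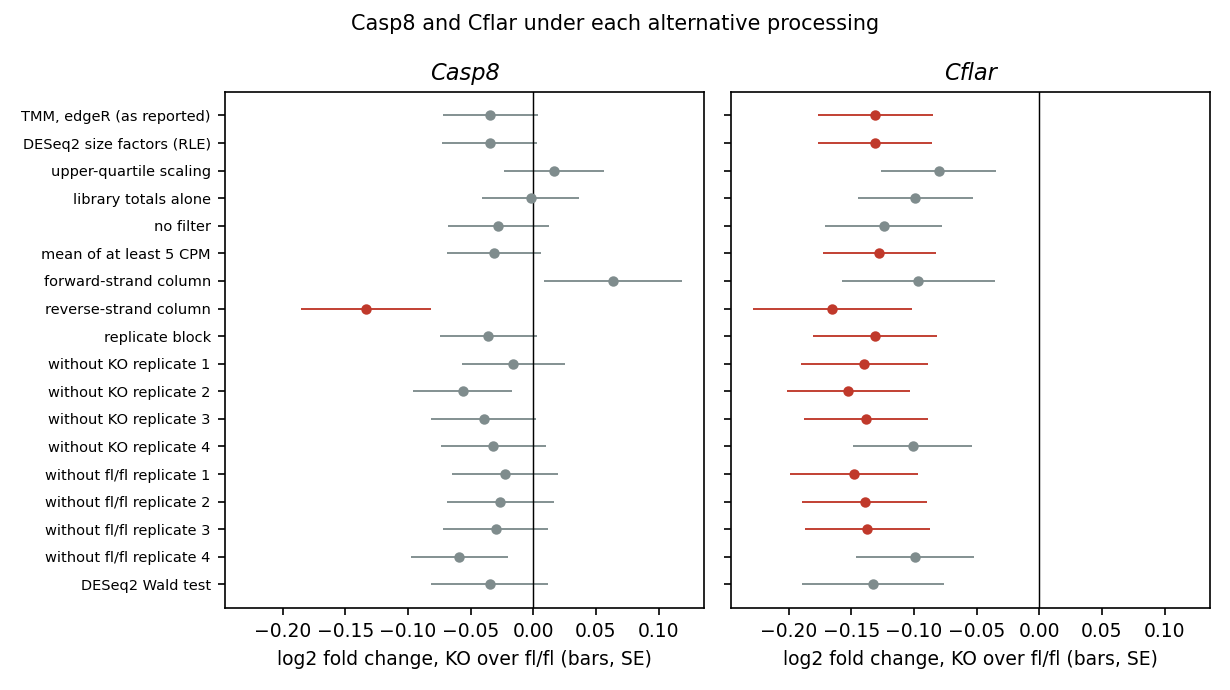
The log2 fold change of Casp8 and Cflar, KO over fl/fl (horizontal axes, bars are SE), as reported and under each of the 17 alternatives (rows); red marks an adjusted p under 0.05. Cflar lies left of 0 in every row, and Casp8 lies on either side of 0 with forward reads (0.063) and reverse reads (-0.13).

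Other genes of the pathway were taken from lists written for ligands, receptors, adaptors, caspases, substrates, necroptosis and the RIPK1 checkpoint. Of 87 listed genes 6 are in the rows, the pair among them, 5 were tested and 1 of these, Cflar, changed. The median log2 fold change of the 5 was -0.034, against 0.0034 over all 420 genes. No listed receptor, adaptor, executioner caspase, apoptosome or necroptosis gene is in the rows.

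At the ligand end, Fasl, the ligand of Fas, was near the limit of detection. It had 2, 1, 1 and 3 reads in KO replicates 1 to 4 and 2, 2, 4 and 1 reads in fl/fl replicates 1 to 4. These 7 and 9 reads in all did not pass the filter on low counts, and no difference was detectable at this depth.

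Among kinases that restrain RIPK1, Mapkapk2, which encodes MK2, had the highest level per unit of length of the 6 genes (52.2 ± 1.65 CPM per kb of joined exons in KO and 52.1 ± 0.765 in fl/fl, SD, n = 4 each). In KO replicates 1 to 4 Mapkapk2 stood at 163.3, 153.2, 155.6 and 162.5 CPM, and in fl/fl replicates 1 to 4 at 161.8, 157.2, 156.7 and 157.8 CPM. The KO libraries lay on both sides of the fl/fl range, with a log2 fold change of 0.0018 (SE 0.028, edgeR adjusted p = 0.959, 95% interval -3.73% to 4.14%). Ikbke, which encodes the kinase IKK-epsilon, stood at 11.7, 11.8, 10.6 and 11.6 CPM in KO and 11.5, 12.4, 12.5 and 12.6 CPM in fl/fl. Only fl/fl replicate 1 lay within the KO range, and the log2 fold change of Ikbke was -0.096 (SE 0.073, edgeR adjusted p = 0.318). Exons of Ikbke overlap the antisense genes Gm28914 and Gm28913, so its count is uncertain without strand.

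At the substrate end, Parp1, the DNA repair enzyme that executioner caspases cleave, stood at 207.0, 210.8, 204.9 and 208.0 CPM in KO and 208.7, 209.1, 212.4 and 215.3 CPM in fl/fl. KO replicate 2 lay above fl/fl replicates 1 and 2, and the log2 fold change of Parp1 was -0.025 (SE 0.024, edgeR adjusted p = 0.455, 95% interval -5.08% to 1.75%). The order of levels per kilobase of joined exons was Mapkapk2, Parp1, Casp8, Cflar, Ikbke and Fasl in both groups, with no neighbours in that order closer than their spread.

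Casp8 and Cflar also share a place on the chromosome. In GENCODE M21 they are adjacent protein-coding genes on the plus strand of chromosome 1, Cflar upstream. Of the 5 coding genes on each side, all 10 are in the rows and 7 passed the filter on low counts. The other 3, Als2cr12, C2cd6 and Mpp4, had at most 11 reads in any library. Of the 7 tested, 2 rose and 5 did not pass the test, against 37.6% called over all genes.

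Stradb, a pseudokinase that activates the kinase LKB1, rose by 19.7%. It stood at 13.6, 13.8, 15.0 and 13.2 CPM in KO replicates 1 to 4 and at 11.1, 12.1, 11.9 and 11.3 CPM in fl/fl replicates 1 to 4. The groups did not overlap (log2 fold change 0.26, SE 0.071, edgeR adjusted p = 0.00485), and the call was lost with reverse reads alone (adjusted p = 0.0657). Orc2, a subunit of the origin recognition complex that marks replication origins, rose by 7.90%. Its levels were 86.0, 88.4, 83.8 and 93.0 CPM in KO and 78.0, 83.4, 81.2 and 83.0 CPM in fl/fl, with a gap of less than 1 CPM between the groups (log2 fold change 0.11, SE 0.035, edgeR adjusted p = 0.0133). The call for Orc2 was lost without KO replicate 4 (adjusted p = 0.0680), without fl/fl replicate 1 (0.0774) and with reverse reads (0.326), and its exons overlap those of Nif3l1 on the opposite strand. Trak2, the neighbour on the far side of Casp8, which links mitochondria to kinesin motors, stood at 100.3 ± 2.39 CPM in KO and 101.5 ± 2.41 CPM in fl/fl. Ndufb3, a subunit of respiratory complex I on the far side of Cflar, stood at 40.4 ± 1.20 CPM in KO and 41.3 ± 3.14 CPM in fl/fl. For Trak2, Ndufb3, Nif3l1, Fam126b and Tmem237 log2 fold changes ran from -0.091 to -0.014 (edgeR adjusted p = 0.220 to 0.890). Under upper-quartile scaling the sign turned for all of these but Tmem237. The count of Nif3l1 is uncertain, since its exons overlap those of Orc2 and Ppil3 on the opposite strand. The same holds for Fam126b, whose exons overlap Gm15834, and for Tmem237, whose exons overlap G730003C15Rik, each on the opposite strand. In KO replicate 1 Tmem237 had 555 either-strand reads but 317 forward and 284 reverse reads.

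**Figure D4:**
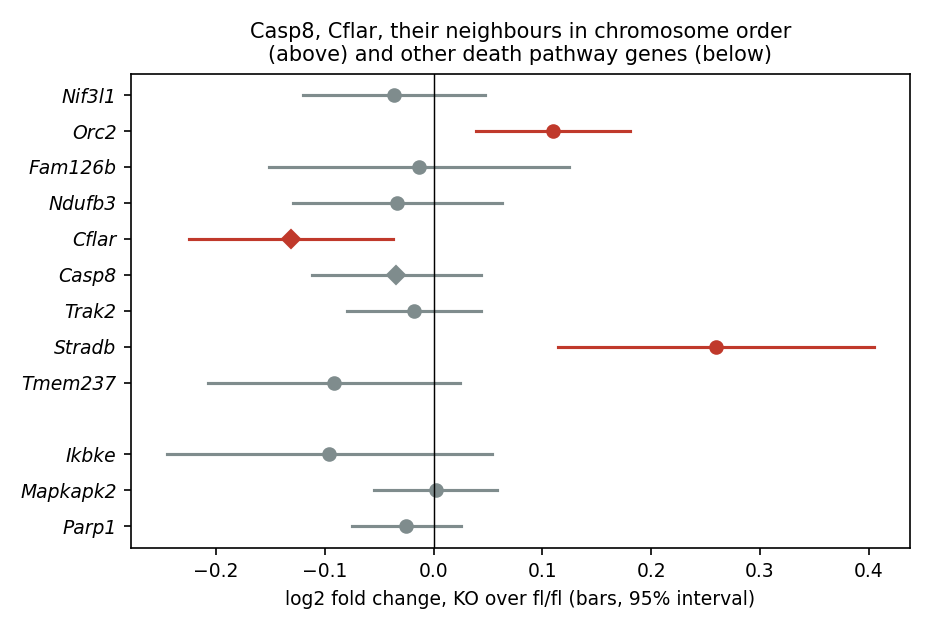
The log2 fold change, KO over fl/fl (horizontal axis, bars are 95% intervals), of Cflar and Casp8 (diamonds) and the 7 tested coding genes beside them in chromosome order (upper block), and of Ikbke, Mapkapk2 and Parp1 (lower block). Red marks an adjusted p under 0.05; Cflar lies below 0 at -0.13, Orc2 and Stradb above 0 at 0.11 and 0.26, and Casp8 next to Cflar at -0.034.

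Across the 8 libraries the levels of the pair showed little correlation. Since the spread of Casp8 was about the size of its counting error, this cannot tell whether the 2 genes vary together. The Pearson correlation of their log2 CPM was 0.0512 (n = 8 libraries, which share the 2 groups and their scaling). Among 292 genes with a mean of at least 10 CPM, the 3 most like Casp8 were Clk1 (r = 0.905), Eloc (r = 0.880) and Mybl1 (r = 0.873). Those most like Cflar included Zbtb37 (r = 0.916) and BC034090 (r = 0.905). With 8 libraries and many genes to choose from, high values of r arise easily, and these are given as a description.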

How the data were processed

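Poly(A) RNA libraries, 4 labelled KO and 4 labelled fl/fl stellate cells, were sequenced, per the labels' protocols. The authors deposited 1 table of raw read counts per gene and library, laid out as STAR writes gene counts, with columns for either-strand, forward and reverse reads. Per the submitters' processing notes, the tools were fastp, STAR 2.7.10a and DESeq2 1.38.0, with the builds GRCm39 and GRCm38 both named. Which gene annotation the authors used is not stated in the labels and tables used here. The tables as used here end within a row, and the 1933 rows they share were analysed. Groups follow the titles; the genotype field of 3 KO samples gives a different number after AREL.

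Library totals were derived from the summary rows as a lower limit of gene-assigned reads: no-feature reads of both strand columns, minus 2 times those of either strand, minus ambiguous reads of both strand columns. Reverse-to-forward ratios of 0.985 to 1.02, below the minimum of 4 for using a strand column, led to either-strand counts. Counts were filtered with filterByExpr (420 genes kept), scaled with TMM and tested with the edgeR 4.0.16 quasi-likelihood F test in R 4.3.3, with Benjamini-Hochberg adjustment and a threshold of 0.05. The TMM factors were computed from the 420 genes kept alone and applied to the derived library totals. They ran from 1.004 to 1.020 in KO and from 0.980 to 0.996 in fl/fl, so the factors separated the groups. The SE comes from the F statistic. Alternatives were 3 other scalings, 2 other filters, either strand column, DESeq2 1.42.0, a replicate block and each library left out in turn. Intervals and counting errors cover reads, not molecules. Symbols, gene order, overlaps and lengths come from GENCODE M21. No pair of libraries of 1 group agreed within sampling noise (chi-square, largest p = 2.59e-07 in KO and 2.21e-07 in fl/fl). The excess was small outside fl/fl replicate 4. Chi-square per degree of freedom was 1.39 to 1.79 in the KO pairs and 1.39 to 1.82 in the fl/fl pairs without that library. The common coefficient of variation that the edgeR fit found beyond counting error was 2.53%. Whether so small a spread is one between mice was not tested.

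The members, lists and tests were chosen with earlier results of these data known; the read ratio and the neighbouring genes were added after the data had been seen. Named genes were the members in the rows, the listed pathway genes in the rows, and the 3 genes most correlated with each member, of which 1 is not reported here.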

Additional observations from a re-analysis of the deposited data

Results flagged for a closer look

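Libraries far from the other 3 of their group were looked for with Dixon's criterion at the 95% level, the distance to the closest library over the whole range. About 1 group in 20 meets it by chance, and 26 groups of the genes named here and of the read ratio were examined. In KO replicate 3, Ikbke stood at 10.6 CPM against 11.6 to 11.8 CPM in the other KO libraries (gap 0.869 of the range). Nif3l1 stood at 42.8 CPM in KO replicate 1 against 40.3 to 40.7 CPM in the other KO libraries (0.852). It also stood at 44.3 CPM in fl/fl replicate 4 against 41.4 to 41.6 CPM in the other fl/fl libraries (0.932). In KO replicate 1 Nif3l1 had 1047 either-strand reads but 1029 forward and 1005 reverse reads, so its level is uncertain. Neither Casp8 nor Cflar was picked out in either group.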

How the results depend on the processing

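The 17 alternatives called numbers of genes within 1.5 times of 158, with 120 to 172 where all libraries were kept and 132 to 191 with 1 library left out. Over all genes, the median log2 fold change was 0.055 with upper-quartile scaling, 0.036 with library totals alone and 0.0034 with TMM. The count of changed members, 1, and that of changed list genes, also 1, each became 0 with upper-quartile scaling, library totals alone, no filter, forward reads or the DESeq2 Wald test, 2 with reverse reads, and 0 to 1 with 1 library left out. Cflar was no longer called with upper-quartile scaling (log2 fold change -0.080, edgeR adjusted p = 0.166), library totals alone (-0.099, 0.0875), no filter (-0.12, 0.0521), forward reads (-0.097, 0.257) and DESeq2 (-0.13, 0.0599). Without 1 library its log2 fold change ran from -0.15 to -0.099. Casp8 changed sign with upper-quartile scaling (0.016) and forward reads (0.063) and was called with reverse reads (-0.13); without 1 library it ran from -0.059 to -0.016. The cause of these differences was not tested. Among genes that did not pass, upper-quartile scaling turned the sign of Parp1 (0.026), Nif3l1 (0.015), Fam126b (0.038), Ndufb3 (0.018) and Trak2 (0.033). Library totals alone turned Parp1 (0.0070), Fam126b (0.019) and Trak2 (0.014), reverse reads turned Parp1 (0.027), Nif3l1 (0.058), Ndufb3 (0.062) and Trak2 (0.030), and forward reads turned Fam126b (0.061). Without 1 library Mapkapk2 ran from -0.015 to 0.016 and Fam126b from -0.071 to 0.037. The difference in the read ratio, -0.048, stayed negative in all 10 alternatives, which were chosen after seeing the data. It ran from -0.079 with forward reads to -0.017 with reverse reads. Each alternative moved it by less than the spread between libraries, but that spread is about as large as the difference. Such a criterion cannot show that the ratio is stable.

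Same-numbered KO and fl/fl libraries did not vary together (correlations of deviations -0.164, 0.130, -0.110 and -0.040), and no KO library correlated best with its own number. With the replicate number as a block 150 genes changed, 1 of them a member, and Cflar kept its call (-0.13, edgeR adjusted p = 0.0400), with Casp8 at -0.036. At 625 to 1427 reads per library, differences of a few percent in Casp8 or Cflar between single libraries lie within counting error.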
